A study of Homo sapiens with 6 samples.

Results

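The genes described here encode the matrix metalloproteases (MMP), the ADAMTS proteases (a disintegrin and metalloprotease with thrombospondin motifs) and their inhibitors, the tissue inhibitors of metalloproteases (TIMP). Members were chosen by symbol, as genes whose whole symbol is MMP, ADAMTS or TIMP followed by a number and whose transcript cluster (the set of array probes summarised as 1 value) is annotated with that symbol alone. This gave 43 genes of the 22465 tested, namely 22 MMP, 18 ADAMTS and 3 TIMP genes, each with a single cluster. They were compared between stable DAXX knockdown cells (shDAXX) and cells with a scrambled hairpin (shControl), to ask whether DAXX knockdown alters the transcripts for matrix breakdown in a breast cancer line.

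The cells were MDA-MB-231, a human line derived from breast cancer that lacks the estrogen and progesterone receptors and HER2. DAXX is a histone H3.3 chaperone and transcription regulator that binds SUMO. Lentivirus delivered 1 hairpin against the DAXX coding sequence (shDAXX, n = 3 arrays) or a scrambled hairpin (shControl, n = 3 arrays). Cells of both groups were selected with 2 µg/ml puromycin, and the sources name no other agent. The authors cloned the DAXX hairpin, while the scrambled construct came from Addgene, so the vectors may differ. Per the labels, cells grew for 24 hours in complete DMEM, and 200 ng of total RNA from each culture was labelled for 1 Affymetrix Human Transcriptome Array 2.0. With a single hairpin per group, an effect of the hairpin itself, of its vector or of the selected population cannot be told apart from that of DAXX.

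MMPs and ADAMTS enzymes are secreted or membrane-bound zinc proteases that are made as inactive proenzymes. MMPs cut collagens, gelatin, laminin and many non-matrix proteins, while ADAMTS enzymes cut large proteoglycans such as aggrecan and versican, process procollagens or trim von Willebrand factor. TIMPs bind the active site and block it, and TIMP3, which stays bound to the matrix, also inhibits several ADAM and ADAMTS enzymes. In breast cancer these proteases are known for their part in invasion and in the release of growth factors and cytokines.

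DAXX had log2 signals of 6.69, 6.67 and 6.61 on the shDAXX arrays, against 7.49, 7.48 and 7.43 on the shControl arrays (log2 fold change -0.81, SE 0.060, limma adjusted p = 4.9e-04). All values are log2 RMA signals, whose array medians ran from 4.91 to 5.02 over 67528 transcript clusters. Arrays of the same group correlated at 0.996 to 0.997, and arrays of different groups at 0.991 to 0.992. Of 3 markers listed as high in this line, VIM had a mean signal of 15.78 in shDAXX and 16.01 in shControl cells (not called), ANXA1 14.78 and 14.79 (not called), and CD44 13.35 and 12.96. CD44 was called higher (limma adjusted p = 0.013), a call lost without shDAXX replicate 2 (0.051) or 3 (0.053), with averaged clusters (0.207) and over all transcript clusters (0.088). Of the low markers, ESR1 (4.52 and 4.53), PGR (4.04 and 4.04) and CDH1 (4.80 and 4.75) lay below the median row mean of 4.96. EPCAM, an epithelial marker listed among the low ones, was above it at 8.03 and 7.98. Of 8 leukocyte markers 0 were called higher and 1 lower (12.5% called, against 9.90% of all genes). Their mean signal was 4.79 to 4.87 on shDAXX and 4.72 to 4.84 on shControl arrays. Of 7 fibroblast and endothelial markers 1 was called higher and 0 lower (14.3% called). Their mean signal was 5.69 to 5.78 on shDAXX and 5.66 to 5.74 on shControl arrays. Both calls, PTPRC lower (adjusted p 0.066 to 0.087 without any 1 array) and CDH5 higher (0.072 to 0.108 without any 1 array but shDAXX replicate 1), were lost in this way. The part of such cells in the results below was not tested. In bulk RNA, fewer expressing cells and less RNA per cell cannot be told apart.

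Of the 43 members, 4 were called (limma, Benjamini-Hochberg adjusted over all genes, threshold 0.05). ADAMTS9 rose 8.04-fold in shDAXX cells, while MMP16, TIMP3 and ADAMTS12 fell by 1.24-fold to 1.36-fold. The other 39 members did not pass the test, which does not show that they were unchanged. The 4 called members are 9.30% of the 43, where 9.90% of all genes tested were called. By direction, 1 member was higher (2.33%, against 4.30% of all genes) and 3 were lower (6.98%, against 5.60%). These shares were near the background. The median log2 fold change was 0.04 over the members and 0.007 over all genes, and 9 members (20.9%, against 23.6% of all genes) had an unadjusted p under 0.05.

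The signals of 20 members exceeded the median row mean of 4.96 in at least 1 group (46.5%, against 66.3% of all genes), and all 4 called members were among these. Of these 20 members 20% were called, against 14.5% of all genes above that level. By direction, 5% were higher (against 6.22%) and 15% lower (against 8.3%). The groups did not overlap for 10 members (23.3%, against 28.7% of all genes), of which 4 were higher and 6 lower on every shDAXX array. Array brightness depends on the probes, so signals of different genes are not compared.

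**Figure D1:**
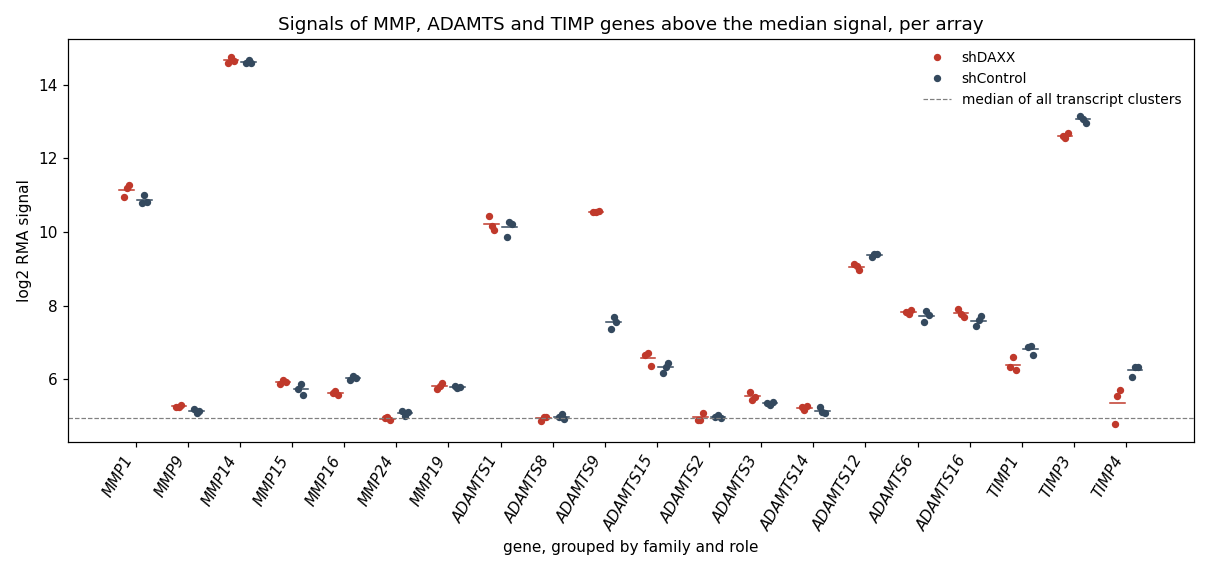
Log2 RMA signal (y axis) of the 20 members above the median row mean in either group, with 1 point per array and a line at each group mean, shDAXX left of shControl. The 3 shDAXX points of ADAMTS9 lie between 10.53 and 10.57, above its shControl points of 7.36 to 7.70, while the points of MMP14 and ADAMTS1 overlap between the groups.

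ADAMTS9 encodes a secreted protease that cleaves aggrecan and versican. It had signals of 10.54, 10.53 and 10.57 on the shDAXX arrays, against 7.36, 7.70 and 7.56 on the shControl arrays. Every shDAXX array was therefore far above every shControl array, and the shDAXX values lay within 0.04 of each other. The log2 fold change was 3.01 (SE 0.094, limma adjusted p = 1.6e-05), which ranked 14 by size among the 22465 genes. It was called in all 15 alternative fits, with log2 fold changes of 2.92 to 3.09.

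The 10 measured genes on either side of it on chromosome 3 had a median log2 fold change of 0.07, with 1 called higher and 2 lower. Of the noncoding RNA genes named for their antisense position to it, ADAMTS9-AS2 had signals of 5.18, 5.14 and 5.29 in shDAXX against 5.01, 4.92 and 4.86 in shControl (limma adjusted p = 0.064). ADAMTS9-AS1 had mean signals of 4.49 and 4.30 (adjusted p = 0.30). ADAMTS9-AS2 was higher on every shDAXX array without passing the test, and ADAMTS9-AS1 overlapped between the groups. Both were excluded from the members by their longer symbols and were named after their values were seen, and no source used here says whether the labelling kept the strand.

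The other proteoglycan-cleaving members did not pass the test. ADAMTS1, which also cleaves aggrecan and versican, had 10.44, 10.16 and 10.05 in shDAXX against 9.87, 10.28 and 10.23 in shControl. Its groups overlapped, and its log2 fold change of 0.09 had a 95% interval of -0.25 to 0.43. That value was -0.02 without shDAXX replicate 1 and -0.04 without shControl replicate 1, so that its direction was not settled. ADAMTS15 had a log2 fold change of 0.25 (interval -0.02 to 0.53) and ADAMTS8 of -0.05 (interval -0.21 to 0.12). ADAMTS4, ADAMTS5 and ADAMTS20, the first 2 being the main aggrecanases of cartilage, had mean signals below 4.96 in both groups. Among the 7 proteoglycanase genes ADAMTS9 was the only one called. Whether its change differed from those of the others was not tested.

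ADAMTS12, a protease known to cleave cartilage oligomeric matrix protein (COMP), was lower. Its signals were 9.13, 9.07 and 8.97 in shDAXX, against 9.32, 9.39 and 9.39 in shControl. All shDAXX arrays were below all shControl arrays, by at least 0.19. Its fall was 1.24-fold (log2 fold change -0.31, SE 0.068, limma adjusted p = 0.034). The call was lost without shDAXX replicate 1 (adjusted p 0.056), 2 (0.088) or 3 (0.105) and without shControl replicate 1 (0.075), 2 (0.099) or 3 (0.102), while the log2 fold change stayed between -0.35 and -0.27. Other settings that ended the call were the replicate number as a block (0.088), the methods' t-test (0.055) and a test of all transcript clusters (0.163). ADAMTS7, the other COMP-cleaving enzyme of this family, was not analysed here.

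The remaining ADAMTS genes had no calls. Of the procollagen N-proteinases, which trim fibrillar procollagens, ADAMTS3 had 5.66, 5.42 and 5.52 in shDAXX against 5.35, 5.31 and 5.37 in shControl. Its groups did not overlap, with a log2 fold change of 0.19 (limma adjusted p = 0.20). ADAMTS14 (0.07) and ADAMTS2 (-0.02) had intervals that included 0. ADAMTS6 (0.11) and ADAMTS16 (0.20), both with signals above 7 in each group, overlapped between the groups. ADAMTS13, which cleaves von Willebrand factor, lay below the median row mean in both groups.

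MMP16, also called MT3-MMP, can activate pro-MMP2 and is 1 of 6 measured membrane-type MMPs, which act at the cell surface. Its signals were 5.61, 5.68 and 5.57 in shDAXX, against 5.98, 6.08 and 6.02 in shControl. The groups were separated by 0.30, more than the range within shDAXX (0.11) or shControl (0.10). MMP16 fell 1.33-fold (log2 -0.41, SE 0.064, adjusted p = 0.010 by limma). It stayed called without any 1 array (adjusted p 0.026 to 0.043) and lost the call only when all transcript clusters were tested (0.075).

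MMP14 (MT1-MMP), the best-known of the membrane-type enzymes and a driver of collagen invasion, had 14.59, 14.75 and 14.66 in shDAXX against 14.58, 14.68 and 14.59 in shControl. The groups overlapped. Its log2 fold change was 0.05 with a 95% interval of -0.12 to 0.22. MMP15 had a log2 fold change of 0.19 (interval -0.02 to 0.41), with overlapping groups. MMP24 had 4.95, 4.96 and 4.88 against 5.14, 5.00 and 5.12, lower on every shDAXX array, with a log2 fold change of -0.16 (limma adjusted p = 0.22). The antisense gene MMP24-AS1, named after its values were seen, had 7.59, 7.50 and 7.38 in shDAXX against 7.94, 8.01 and 7.79 in shControl (log2 fold change -0.42, adjusted p = 0.028 over genes and 0.116 over all transcript clusters). That call was lost without shDAXX replicate 2 (0.077) or 3 (0.087) and without shControl replicate 1 (0.090) or 2 (0.086). The 20 measured neighbours of MMP24 had the lowest median of any member's neighbours, -0.17, with 3 called lower. GPI-anchored MMP17 and MMP25 lay below the median row mean.

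MMP1, the interstitial collagenase that cuts fibrillar collagens I, II and III, had 10.96, 11.19 and 11.29 in shDAXX against 10.78, 11.01 and 10.81 in shControl. The lowest shDAXX array lay below the highest shControl array. The log2 fold change was 0.28 (SE 0.11, 95% interval 0.03 to 0.53) and did not pass (limma adjusted p = 0.17, and 0.091 to 0.37 over the alternatives). MMP3, stromelysin 1, which activates other proMMPs, was chosen after its values were seen. It had 5.02, 4.89 and 4.79 in shDAXX against 4.54, 4.51 and 4.74 in shControl, higher on every shDAXX array by 0.30 on average (limma adjusted p = 0.097, and 0.076 to 0.26 over the alternatives).

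MMP1 and MMP3 lie in a cluster of MMP genes on chromosome 11, in the order MMP7, MMP20, MMP27, MMP8, MMP10, MMP1, MMP3, MMP12 and MMP13 (GRCh38.p14). Of these 9 genes 0 were called, where 9.90% of all genes were called, and their log2 fold changes ran from -0.03 to 0.30. Apart from MMP1, their mean signals were 4.29 to 4.90 in shDAXX and 4.26 to 4.68 in shControl, below the median row mean in both groups. Of all 23 members below it in both groups, 0 were called. The cluster holds the collagenases MMP8 and MMP13, the stromelysin MMP10, the matrilysin MMP7 and the macrophage elastase MMP12.

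MMP9, the gelatinase B that cuts denatured collagen and collagen IV, had 5.24, 5.25 and 5.31 in shDAXX against 5.19, 5.09 and 5.13 in shControl. All shDAXX arrays were higher, with a log2 fold change of 0.13 (95% interval -0.02 to 0.28, limma adjusted p = 0.26). MMP2, the gelatinase A that MMP14 activates, lay below the median row mean in both groups. MMP19, which cuts basement membrane proteins, had a log2 fold change of 0.02 (interval -0.13 to 0.18), which was -0.003 with equal array medians.

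**Figure D2:**
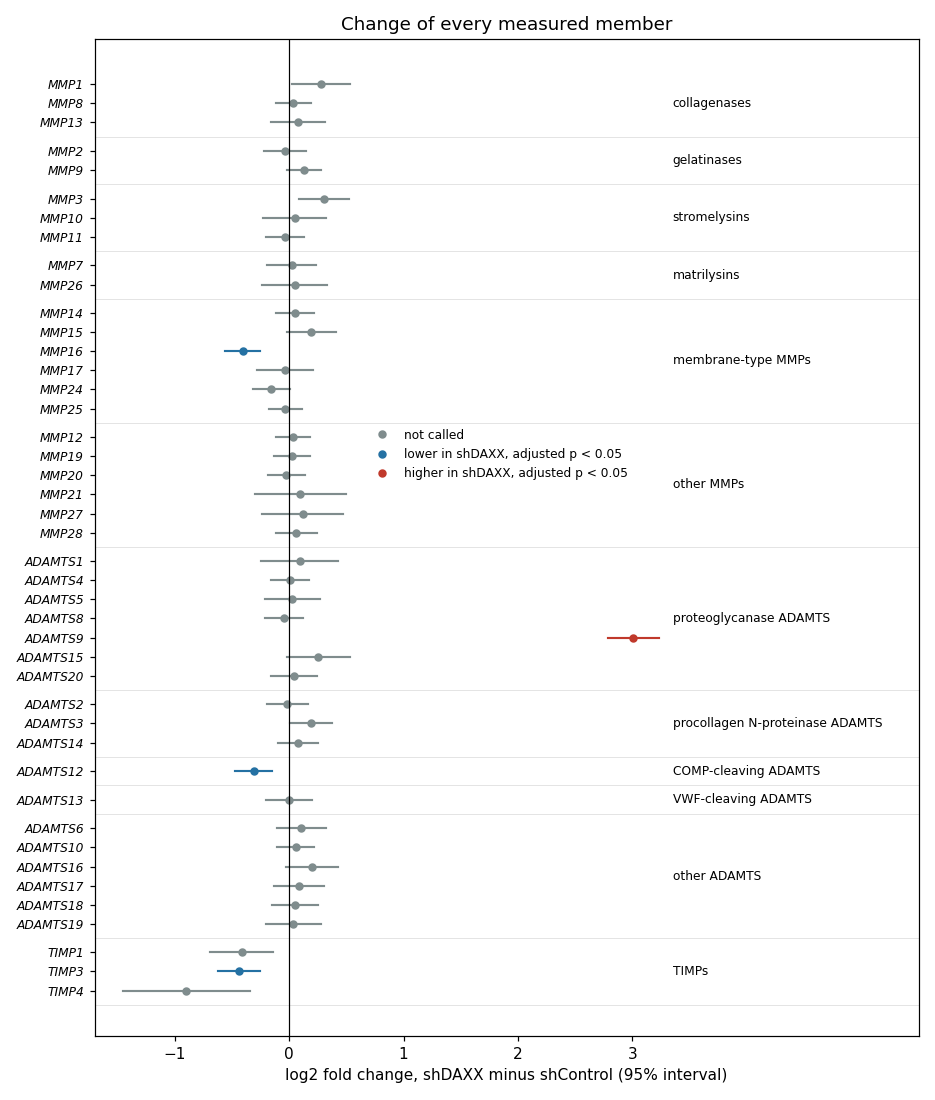
Log2 fold change (x axis, shDAXX minus shControl, with its 95% interval from limma) of each of the 43 members, grouped by role from top to bottom. ADAMTS9 stands alone at 3.01, and the intervals of the 3 TIMP members lie below 0, with TIMP3 the one that passed the test over all genes. An interval that excludes 0 has an unadjusted limma p under 0.05, as 23.6% of all genes had. TIMP2, whose cluster is shared with another gene, is not drawn.

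All 3 TIMP members had lower signals on every shDAXX array, and 1 of them was called. Of all 22465 genes, 3312 were lower on every shDAXX array and 5.60% were called lower. The 3 TIMP members were above the median row mean in at least 1 group. Of the 14888 genes above it, 3074 were lower on every shDAXX array and 8.3% were called lower. The cluster that TIMP2 shares with CEP295NL had overlapping groups and a log2 fold change of 0.14. TIMP3, the matrix-bound inhibitor, had 12.61, 12.55 and 12.70 in shDAXX, against 13.16, 13.06 and 12.96 in shControl. The groups were separated by 0.26. TIMP3 fell 1.36-fold (log2 fold change -0.44, SE 0.078, limma adjusted p = 0.015). The call was lost without shDAXX replicate 1 (adjusted p 0.056) or 2 (0.056) and without shControl replicate 1 (0.054) or 2 (0.055), with log2 fold changes of -0.49 to -0.38 over all alternatives. The replicate block (0.056), the methods' t-test (0.053) and a test of all transcript clusters (0.085) ended it too.

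TIMP4 had the widest spread of any member. Its signals were 4.78, 5.53 and 5.71 in shDAXX, against 6.05, 6.34 and 6.33 in shControl. The shDAXX arrays were all lower, and shDAXX replicate 1 was well below the other two. Its log2 fold change of -0.90 (SE 0.23, 95% interval -1.46 to -0.34) did not pass (limma adjusted p = 0.060). Without shDAXX replicate 1 it was -0.62 and passed (0.041). It also passed with the dim filter (0.033), the replicate block (0.037) and eBayes with trend and robust (0.046).

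TIMP1, the soluble inhibitor of most MMPs, had 6.32, 6.60 and 6.25 in shDAXX, against 6.87, 6.90 and 6.65 in shControl. The highest shDAXX array was 0.05 below the lowest shControl array. The log2 fold change of -0.42 (SE 0.12, 95% interval -0.69 to -0.14) did not pass (limma adjusted p = 0.071), and passed without shDAXX replicate 2 (0.040) and with the dim filter (0.039). TIMP2 shares its cluster with CEP295NL and is no member. That cluster had 8.43, 8.67 and 8.63 in shDAXX against 8.44, 8.42 and 8.45 in shControl, with overlapping groups and a log2 fold change of 0.14 (limma adjusted p = 0.58 over all transcript clusters). MMP23A and MMP23B likewise share a cluster, with means of 4.51 in shDAXX and 4.60 in shControl.

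The TIMP genes lie on different chromosomes. The 20 measured neighbours of TIMP3 on chromosome 22 had a median log2 fold change of 0.008 and 0 calls, those of TIMP1 on chromosome X -0.008 and 0 calls, and those of TIMP4 on chromosome 3 -0.03 with 2 called lower. Over all 43 members the medians of the neighbours ran from -0.17 to 0.13.

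Promoter sequence is shown for the 3 TIMP genes, ADAMTS12 and MMP24, to set side by side what precedes the starts of members with lower signals on every shDAXX array. RefSeq promoters on GRCh38.p14 matched 25 of the 43 members, so the motif shares of members given below cover only those. Each line gives the 250 bases before the start, 5′ to 3′ on the gene's strand, with capitals marking the GC box GGGCGG and the AP-1 element TGANTCA on either strand. In GRCh38.p14 these are chr22:32801455-32801704 (plus strand, TIMP3), chr3:12158913-12159162 (minus strand, TIMP4), chrX:47582186-47582435 (plus strand, TIMP1), chr5:33891991-33892240 (minus strand, ADAMTS12) and chr20:35226440-35226689 (plus strand, MMP24). MMP16, also lower on each, is named only, and no promoter is printed for ADAMTS9, the called member that rose.
TIMP3: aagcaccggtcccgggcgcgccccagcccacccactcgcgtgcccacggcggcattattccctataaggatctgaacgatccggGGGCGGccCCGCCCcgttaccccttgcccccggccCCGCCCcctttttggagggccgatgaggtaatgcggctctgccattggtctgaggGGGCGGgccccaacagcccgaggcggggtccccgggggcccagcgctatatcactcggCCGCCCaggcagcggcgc
TIMP4: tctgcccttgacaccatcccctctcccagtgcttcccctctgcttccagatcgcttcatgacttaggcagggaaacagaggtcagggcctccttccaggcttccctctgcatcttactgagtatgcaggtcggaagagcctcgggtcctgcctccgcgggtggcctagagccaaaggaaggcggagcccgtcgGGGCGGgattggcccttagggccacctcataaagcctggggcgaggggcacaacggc
TIMP1: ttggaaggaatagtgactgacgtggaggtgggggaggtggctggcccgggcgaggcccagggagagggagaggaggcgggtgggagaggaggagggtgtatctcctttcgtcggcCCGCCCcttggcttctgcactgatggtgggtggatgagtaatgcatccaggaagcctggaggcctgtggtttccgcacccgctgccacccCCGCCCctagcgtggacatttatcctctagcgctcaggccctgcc
ADAMTS12: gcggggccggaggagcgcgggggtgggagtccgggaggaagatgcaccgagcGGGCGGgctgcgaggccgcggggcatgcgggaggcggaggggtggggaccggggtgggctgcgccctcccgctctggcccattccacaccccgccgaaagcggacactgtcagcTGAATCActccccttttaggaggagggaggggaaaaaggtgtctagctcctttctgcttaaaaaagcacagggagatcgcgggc
MMP24: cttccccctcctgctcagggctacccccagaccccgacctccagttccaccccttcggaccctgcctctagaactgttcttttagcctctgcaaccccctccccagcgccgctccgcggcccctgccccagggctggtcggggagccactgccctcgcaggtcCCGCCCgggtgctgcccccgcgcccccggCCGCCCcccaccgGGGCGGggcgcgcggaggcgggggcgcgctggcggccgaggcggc

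All 5 promoters are rich in G and C (72.4% in TIMP3, 62.8% in TIMP4, 64.8% in TIMP1, 68.4% in ADAMTS12 and 77.6% in MMP24), and each holds at least 1 GC box, the letters bound by Sp1 and related factors. TIMP3 has 5 GC boxes, MMP24 has 3, TIMP1 has 2, and TIMP4 and ADAMTS12 have 1 each. A GC box was present in 42.6% of the 35116 promoters of this length searched, and in 17 of the 25 matched members. The AP-1 element, bound by FOS and JUN proteins, was found in ADAMTS12 alone of the 5. It was present in 4 of the 25 matched members (16%) and in 6.57% of all promoters. The TATA box TATAAA (10.7% of all promoters) and the sterol regulatory element TCACNCCAC (0.883%) were found in none of the 5. Among the 25 matched members the TATA box was found in 7 (28%) and the sterol regulatory element in 0. The motifs searched do not overlap one another in these 5 promoters, and a match is a description of letters.

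**Figure D3:**
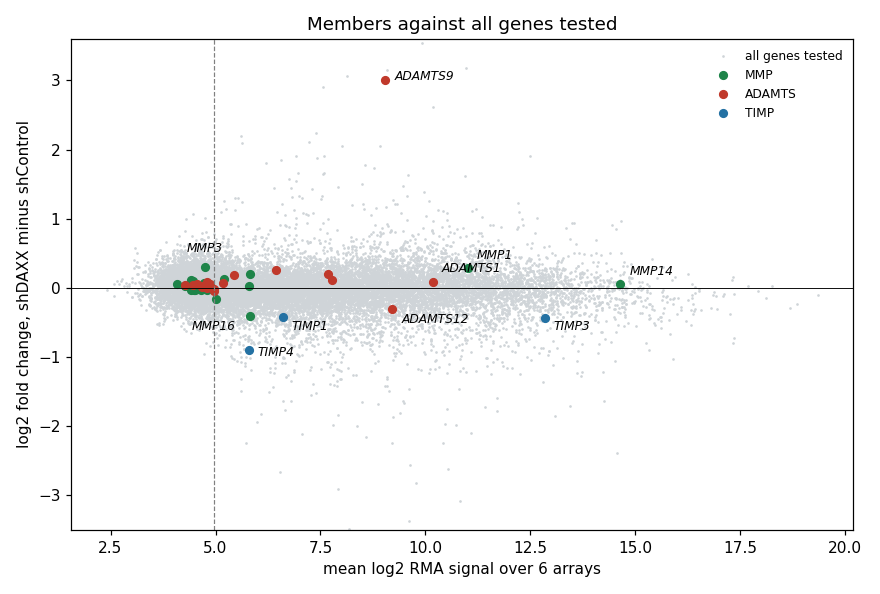
Log2 fold change (y axis, shDAXX minus shControl) against mean log2 RMA signal over 6 arrays (x axis) for all genes tested (grey) and the members by family (MMP green, ADAMTS red, TIMP blue); the dashed line is the median row mean of 4.96. ADAMTS9 sits among the largest rises, most other members lie within the bulk, and 7 genes that are no members fall outside the plotted range.

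The members that did not pass were bounded fairly closely by the 3 arrays per group. Their 95% intervals lay within a 2-fold change in either direction for 38 of 39 genes, the exception being TIMP4, and within 1.3-fold for 29. Of the 39, 23 had mean signals below the median row mean in both groups (4.11 to 4.90 in shDAXX and 4.06 to 4.83 in shControl). RMA compresses differences at such signals, so an interval there bounds the signal and not the transcript. MMP3 was the only 1 of these 23 with an unadjusted p under 0.05.

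Among genes that activate, inhibit or clear these proteases, PLAU rose and SPOCK1 and THBS2 fell. Of 20 measured genes in this list 2 rose and 5 fell (35.0% called, against 9.90% of all genes), with a median log2 fold change of -0.01. In this list 17 genes were above the median row mean in either group, and 14.5% of all genes above it were called. PLAU, the urokinase that turns plasminogen into plasmin, had 12.01, 12.17 and 12.05 in shDAXX against 11.45, 11.44 and 11.28 in shControl (log2 fold change 0.69, SE 0.078, limma adjusted p = 0.0028). Its receptor gene PLAUR had a mean of 11.47 in each group, and the tissue activator PLAT (-0.02) did not pass. TFPI2, an inhibitor of plasmin, rose by 0.27 (adjusted p = 0.044), a call lost without any 1 array (0.056 to 0.132) and with equal array medians (0.146).

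SPOCK1, which encodes the secreted proteoglycan testican-1, had the largest change of this list. Its signals were 7.45, 7.29 and 7.36 in shDAXX, against 9.35, 9.43 and 9.33 in shControl. SPOCK1 fell 4.01-fold (log2 fold change -2.003, SE 0.070, limma adjusted p = 2.1e-05) and was called in all 15 alternatives. THBS2, thrombospondin 2, which binds MMP2 and helps its uptake by LRP1, had 5.26, 5.36 and 5.33 in shDAXX against 6.32, 6.31 and 6.37 in shControl (log2 fold change -1.02, SE 0.061, adjusted p = 2.0e-04). Both genes were clear of overlap on every array.

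Smaller falls were those of BSG, the surface protein basigin that induces MMPs in neighbouring cells (-0.51, limma adjusted p = 0.027), SERPINE2, an inhibitor of urokinase and thrombin (-0.41, adjusted p = 0.032), and PCSK5, a proprotein convertase (-0.31, adjusted p = 0.018). PCSK5 lost its call without any 1 array (0.054 to 0.067). BSG lost it without shDAXX replicate 1 (0.088) or 3 (0.092) or shControl replicate 1 (0.087) or 2 (0.085), and kept it without the other two. SERPINE2 lost it without any 1 array but shDAXX replicate 3 (0.071 to 0.097), and with quantile normalization (0.085). PCSK5, BSG and SERPINE2 were also not called over all transcript clusters. THBS1 (0.15) did not pass. RECK, the membrane-anchored MMP inhibitor, named here after its values were seen, was higher on every shDAXX array by 0.25 on average (adjusted p = 0.125).

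The related ADAM and astacin proteases had 4 calls higher and 1 lower among 16 measured genes (31.2%, against 9.90% of all genes, median 0.06). Of the 16, 12 were above the median row mean in either group, and 14.5% of all genes above it were called. ADAM28 rose by 0.60 (limma adjusted p = 0.012), ADAM17, the sheddase of TNF, by 0.39 (0.022), ADAM8 by 0.37 (0.024) and BMP1, the procollagen C-proteinase, by 0.28 (0.049), while ADAM19 fell by 0.57 (0.0058). ADAM28 and ADAM19 stayed called without any 1 array, and ADAM28 lost its call over all transcript clusters (0.058) and by the methods' t-test (0.064). BMP1 lost its call without any 1 array (0.072 to 0.141), ADAM17 without any but shDAXX replicate 1 (0.057 to 0.076) and ADAM8 without any but shControl replicate 2 (0.066 to 0.081). With equal array medians ADAM8 (0.078) and BMP1 (0.160) lost their calls too. Over all transcript clusters and by the methods' t-test BMP1, ADAM17 and ADAM8 were not called. ADAM9 (0.09), ADAM10 (0.23) and ADAM15 (0.18) did not pass.

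The substrates and the noncatalytic relatives had no calls. Of 17 proteoglycan and glycoprotein substrates 0 rose and 0 fell by limma, where 9.90% of all genes were called. Of the 17, 2 had an unadjusted p under 0.05, and the median log2 fold change was 0.03. FN1 was at 0.04, TNC at 0.01 and FBN1 at 0.55 (limma adjusted p = 0.101). Only 6 of the 17 were above the median row mean in either group (35.3%, against 66.3% of all genes), so 0 calls says little about these substrates. ACAN and VCAN, the proteoglycans that ADAMTS9 is known to cleave, lay below the median row mean in both groups. Of 6 ADAMTS-like genes, whose products lack a protease domain, 0 rose and 0 fell, a small list beside the 9.90% of all genes called. Of the 6, 2 had an unadjusted p under 0.05, with 3 positive and 3 negative log2 fold changes. ADAMTSL1 (-0.24) and ADAMTSL5 (-0.16) were lower on every shDAXX array, ADAMTSL4 (0.13), named after its values were seen, was higher on each, and ADAMTSL3 was at 0.04 with overlapping groups.

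**Figure D4:**
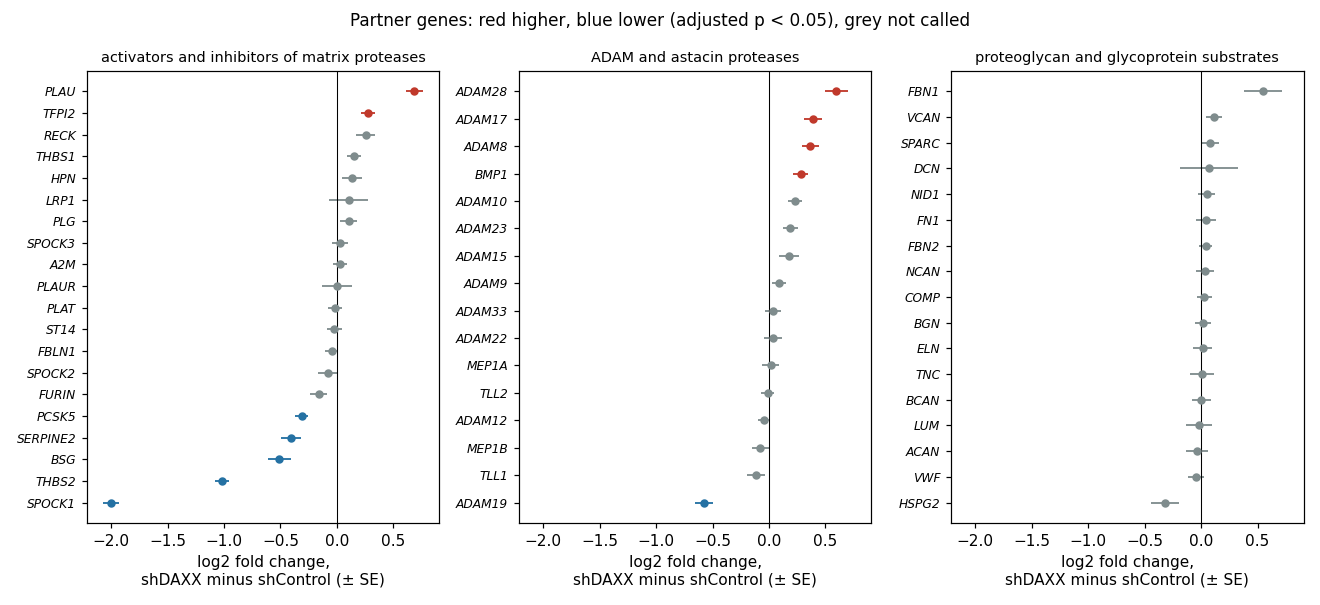
Log2 fold change (x axis, shDAXX minus shControl, ± SE) of 3 lists of partner genes, with red points called higher, blue called lower and grey not called. SPOCK1 at -2.003, THBS2 at -1.02 and PLAU at 0.69 stand out among the activators and inhibitors. No substrate was called, and only 6 of the 17 were above the median row mean in either group.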

How the data were processed

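RNA from 6 cultures of MDA-MB-231 cells, 3 shDAXX and 3 shControl, was measured on 1 array each, and groups and replicate numbers came from the sample titles. The deposited values are log2 RMA signals that the authors made from array intensities by background correction, normalization between arrays and summary of probes, with Affymetrix Expression Console named in the submitters' processing notes. Its version and genome build are not given in the sources used here, nor whether the batch correction (ComBat) that the study describes was applied to these arrays, which could narrow the spread within groups. The log base was inferred from the values.

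Of 70523 rows, 67528 transcript clusters were kept. Those with 1 symbol, 23781, were set against RefSeq by gene ID (GRCh38.p14, 21497 matched, 0 symbols changed), and the brightest cluster per gene gave 22465 genes. A linear model of shDAXX against shControl without covariates was fitted in limma 3.58.1 (R 4.3.3) with two-sided moderated tests and Benjamini-Hochberg adjustment over all genes, and was tested on simulated data. Fold changes are shDAXX minus shControl with the moderated SE. The submitters call the replicates biological, and 0 array pairs held the same values. Precision is limited by there being 3 arrays per group. Members and lists were chosen with earlier results of these data known, so no list was tested as a set. Every called member is named, then members not called above the median row mean of 4.96, and of the other lists the called genes and up to 3 others of the highest mean. The alternatives were to drop dim genes, to average a gene's clusters, to test all transcript clusters, to normalize by quantiles or to equal medians, to block on the replicate number, to weight arrays, to use eBayes with its trend and robust options, to use the unpaired t-test of the study's methods (adjusted, or unadjusted with their 1.3-fold minimum), and to leave out each array in turn.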

Additional observations from a re-analysis of the deposited data

How the results depend on the processing

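The count of called members, 4 with the deposited values, was 6 with the filter on dim genes, which 19 members passed (1 higher and 5 lower), 5 with eBayes with trend and robust, 4 with array weights, averaged clusters, equal array medians or quantile normalization, 3 with the replicate block, 2 by the methods' t-test after adjustment (1 of them lower), 5 at the methods' own threshold, and 1 when all transcript clusters were tested (0 lower). Leaving out 1 array gave 2 to 3 called members (1 to 2 lower), with 2 without shControl replicate 1 or 2. ADAMTS9 was called each time. Of all genes, 2224 were called with the deposited values, 802 among all transcript clusters, 1474 with the replicate block and 1297 to 1424 without any 1 array. The methods' t-test called 1518 after adjustment and 1768 at their threshold. The lower calls were 56.5% of all calls with the deposited values, 43.7% after quantile normalization and 63.6% with equal array medians, while the 3 lower members kept their calls under both. For 21 members, MMP3 among them, each in up to 15 alternative fits, 283 of 313 comparisons kept their direction and side of the threshold. Of the rest, 17 lost and 6 gained a call, and 7 changed sign. The sign changes belonged to ADAMTS1 (-0.038 to 0.17 without 1 array), ADAMTS2 (-0.08 to 0.015 without 1 array) and MMP19 (-0.0033 with equal array medians and -0.017 to 0.058 without 1 array). The cause of these changes was not tested. Same-numbered arrays of the 2 groups had deviations that correlated at -0.09, 0.22 and 0.08, so the numbers were not taken to pair the cultures, and under the block TIMP3 (0.056) and ADAMTS12 (0.088) were not called and TIMP4 (0.037) was.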
